A study of Mus musculus with 9 samples.

Results

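A group of 9 genes that encode growth factors and a vasoactive peptide released by endothelial cells were followed in sorted mouse lung endothelium: Hgf, Pdgfb, Pdgfa, Hbegf, Kitl, Rspo3, Tgfb1, Tgfb2 and Edn1. They were taken by symbol from a table of 56748 gene identifiers. All 9 were present and all 9 were among the 19486 genes with enough counts to be tested. The RNA came from lungs of C57BL/6 mice aged 6 weeks, from cells sorted as DAPI-, CD45- and CD31+, with 3 libraries in each of 3 genotypes. The first genotype was WT. The second was DNMAML, an abbreviation commonly used for dominant-negative Mastermind-like, a protein fragment that blocks transcription driven by Notch receptors. The third was Notch1f/f, the usual notation for a floxed allele of the receptor gene Notch1. Which recombinase was used, what drives it and whether WT mice carried it is not stated, and neither is whether replicates were different animals, so p-values measure the spread between these libraries only.

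Total counts ran from 15522100 to 27842496 per library. The 10 endothelial marker genes checked, among them Cdh5 and Pecam1, had counts in every library. They summed to 17360.5 to 19119 CPM in WT, 16357 to 17919 in DNMAML and 15422 to 18426 in Notch1f/f. CPM is the count of a gene scaled to a common library total. Among these 10 in Notch1f/f against WT, 0 passed by edgeR. An unadjusted p below 0.05 was reached by 5, where 13.4% of all genes did. DESeq2 called Flt1 lower and Emcn higher, where it called 6.2% of all genes. Notch1 itself had 766, 909 and 811 CPM in WT, 679, 872 and 777 in the DNMAML libraries and 70.8, 29.5 and 176 in the Notch1f/f libraries, a log2 difference from WT of -3.17 (SE 0.59) in Notch1f/f (edgeR adjusted p = 0.0634). Of 13 Notch target genes 3 fell in Notch1f/f and 0 in DNMAML against WT by edgeR, where 0.323% and 0% of all genes fell. An unadjusted p below 0.05 was reached by 7 and 4, against 13.4% and 5.97% of all genes. Notch3, 1 of the 3 that fell, is also among the 12 genes of mural cells given below. All 20 cell cycle genes had positive log2 differences from WT in both genotypes, 17 of 20 at an unadjusted p below 0.05 in each. By edgeR 10 of the 20 rose in Notch1f/f and 1 in DNMAML, where 0.513% and 0.00513% of all genes rose. DESeq2 called 16 and 14, against 6.2% and 1.14% of all genes, and limma-voom 0 in each. Comparing Notch1f/f with DNMAML left 0 of 20 past the threshold by edgeR, DESeq2 or limma-voom and 0 at an unadjusted p below 0.05. Y-linked genes were expressed in WT replicate 2, DNMAML replicates 1 and 3 and Notch1f/f replicate 1, so sex differed within each genotype. In bulk RNA, fewer cells of a type and less RNA per cell cannot be told apart.

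Endothelial cells do more than line vessels. They release so-called angiocrine factors that act on pericytes, smooth muscle, fibroblasts, epithelium and on the endothelium itself. Hgf encodes hepatocyte growth factor, the ligand of the receptor Met. Pdgfb and Pdgfa encode platelet-derived growth factor chains, of which the B chain recruits pericytes through Pdgfrb and the A chain acts on fibroblasts through Pdgfra. Hbegf encodes a membrane-anchored ligand of the EGF receptor that is shed by metalloproteases. Kitl encodes stem cell factor, the ligand of Kit. Rspo3 encodes a secreted enhancer of Wnt signalling that binds Lgr receptors and the ubiquitin ligases Znrf3 and Rnf43. Tgfb1 and Tgfb2 encode latent cytokines that must be released from their carrier proteins, and Edn1 encodes the precursor of endothelin-1, a strong constrictor of vessels.

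RefSeq promoter windows on build GRCm38.p6 were found for 6 of the 9 genes and cover the 250 bases before an annotated start. Hbegf, Pdgfb and Rspo3 had no window. Windows free of annotated exons are printed for Hgf, the member that passed the test, and for Tgfb1 and Edn1, 2 members with like differences from WT in both other genotypes. Each is written in the direction of the gene, with matches in capitals to TGGGAA, the core of the site bound by the Notch partner Rbpj, to TGACTCA, the AP-1 site of Fos and Jun proteins, or to TATAAA, the TATA box, on either strand.
Hgf (chr5:16553245-16553494, plus strand): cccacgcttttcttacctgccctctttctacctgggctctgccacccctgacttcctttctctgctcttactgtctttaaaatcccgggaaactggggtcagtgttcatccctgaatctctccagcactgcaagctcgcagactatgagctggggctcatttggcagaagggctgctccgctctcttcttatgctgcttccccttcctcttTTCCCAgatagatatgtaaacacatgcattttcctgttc
Tgfb1 (chr7:25686752-25687001, plus strand): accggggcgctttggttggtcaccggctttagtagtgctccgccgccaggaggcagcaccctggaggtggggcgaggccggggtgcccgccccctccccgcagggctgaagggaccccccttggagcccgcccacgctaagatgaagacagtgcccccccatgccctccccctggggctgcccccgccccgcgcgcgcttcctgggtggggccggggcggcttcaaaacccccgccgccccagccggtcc
Edn1 (chr13:42301226-42301475, plus strand): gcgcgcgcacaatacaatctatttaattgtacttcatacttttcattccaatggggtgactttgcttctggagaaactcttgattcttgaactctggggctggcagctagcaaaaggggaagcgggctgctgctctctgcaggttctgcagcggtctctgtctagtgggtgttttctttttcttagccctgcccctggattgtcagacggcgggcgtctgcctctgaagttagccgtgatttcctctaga
The printed Hgf window held a single match, the Rbpj core on the opposite strand, which starts 39 bases before the start site of that window. Another Hgf window, chr5:16553651-16553900, before a different annotated start, held none. It has 150 bases in annotated exons and is not printed. The Tgfb1 and Edn1 windows held none. Of the 8 windows of these 6 members, 3 held TGGGAA, the others being a Kitl window and a Pdgfa window. Those reach into annotated exons and are not printed, and Pdgfa was not lower in Notch1f/f. Over all 32851 windows, 21.6% held TGGGAA, 4.46% TGACTCA and 12.4% TATAAA. A match describes letters only.

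On genome build GRCm39 the deposited table places Hgf at chromosome 5, 16758493 to 16825150, Pdgfb at chromosome 15, 79880075 to 79899178 and Pdgfa at chromosome 5, 138961769 to 138983125. Hbegf lies at chromosome 18, 36637980 to 36648858, Kitl at chromosome 10, 99851492 to 99936278 and Rspo3 at chromosome 10, 29328412 to 29411863. Tgfb1 lies at chromosome 7, 25386427 to 25404502, Tgfb2 at chromosome 1, 186354989 to 186438186 and Edn1 at chromosome 13, 42454952 to 42461466. Counting was done over exons without regard to strand, so bases shared with another annotated gene are uncertain. That share was 26.1% of the exon bases of Pdgfa, which overlaps 6330403L08Rik on the other strand, 13.1% for Rspo3, 6.74% for Hgf, 2.14% for Tgfb2 and 1.64% for Edn1. Pdgfb, Hbegf, Kitl and Tgfb1 shared 0% of theirs.

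Levels were first set side by side per length, as CPM per kb of exon. In WT, Pdgfb, Kitl and Edn1 were the most abundant, at 82.3 ± 8.24, 77.2 ± 4.15 and 64.4 ± 19.2 CPM per kb (SD, n = 3), and their ranges overlapped. Tgfb1 followed at 16.9 ± 2.21, apart from its neighbours on both sides. Hbegf at 7.96 ± 3.22 and Hgf at 7.55 ± 1.63 overlapped. Pdgfa at 5.18 ± 0.540 lay below Hgf without overlap but within the range of Hbegf. Below these, without overlap, came Tgfb2 at 2.01 ± 0.642 and then Rspo3 at 1.1 ± 0.197. The WT levels per length of Pdgfb, Kitl and Edn1 were above 97.9%, 97.6% and 97.2% of all tested genes, and that of Rspo3 above 32.8%. Kitl and Pdgfb were again first and Edn1 next in DNMAML. In Notch1f/f, Pdgfb stood alone at 104 ± 6.23, above Kitl at 59.8 ± 6.81, and Hgf had moved below Pdgfa.

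**Figure D1:**
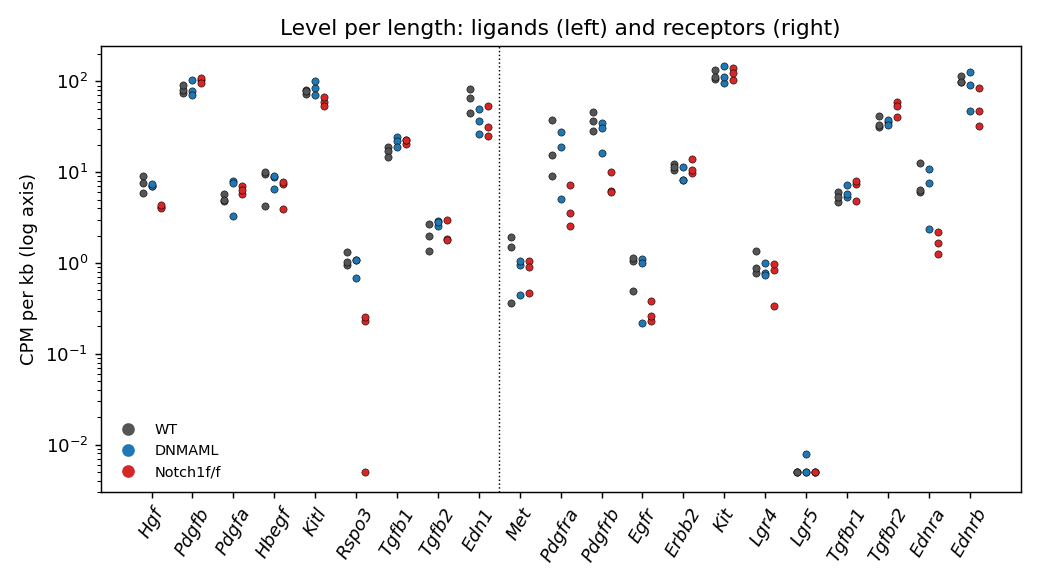
Each point is a library; the vertical log axis gives the level per length in CPM per kb for the 9 ligand genes (left of the dotted line) and 12 of their receptors (right), coloured by genotype, with libraries at 0 counts drawn at 0.005. Pdgfb, Kitl, Edn1, Kit and Ednrb lie near the top in WT, and Rspo3, Pdgfra, Pdgfrb and Ednra lie lower in Notch1f/f libraries.

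The comparisons ask how these genes differ when Notch transcription is targeted broadly (DNMAML) or through Notch1 (Notch1f/f). Of the 9 members, 1 passed in any comparison: Hgf, which fell in Notch1f/f against WT. In DNMAML against WT 0 of 9 passed the edgeR quasi-likelihood test, where 0.00513% of all tested genes did (1 gene, which was higher). An unadjusted p below 0.05 was reached by 1 of 9 (Tgfb1), against 5.97% of all genes, and 0 of 9 passed with DESeq2 (1.14% of genes) or limma-voom (0%). For Notch1f/f against WT 1 of 9 passed, which was lower, where 0.836% of genes passed, 0.513% higher and 0.323% lower. An unadjusted p below 0.05 was reached by 5 of 9, against 13.4% of genes. DESeq2 called 2 of 9, Hgf and Rspo3, against 6.2% of genes, and limma-voom 0 of 9, against 0.354%.

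Between Notch1f/f and DNMAML 0 of 9 members passed with edgeR, where 0.0205% of genes did, 0.0103% in each direction. An unadjusted p below 0.05 was reached by 3 of 9, against 6.37% of genes. DESeq2 called 1 of 9, which was Hgf, against 1.02% of genes, and limma-voom 0 of 9, against 0.0205%. The labels do not state a pairing, but deviations from group means correlated at 0.255 to 0.383 for same-numbered WT and DNMAML libraries. They reached 0.411 for Notch1f/f replicate 1 with WT replicate 2, which differ in number. With the replicate number as a block in a fit of the 6 WT and DNMAML libraries 310 genes passed but again 0 members.

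The WT and DNMAML libraries overlapped for every member, so that 0 of 9 did not overlap, against 14.4% of all tested genes, 7.58% higher and 6.84% lower. Between Notch1f/f and WT 5 of 9 did not overlap, against 17.8%. Pdgfb and Tgfb1 lay above WT, that is 2 of 9 against 8.5%, and Hgf, Kitl and Rspo3 lay below, that is 3 of 9 against 9.33%. Between Notch1f/f and DNMAML 3 of 9 did not overlap, against 9.72%. These were Hgf, Kitl and Rspo3, all lower, where 5.32% of genes were, with 0 of 9 higher against 4.4%. The median log2 difference of the 9 members was 0.03 for DNMAML against WT, -0.32 for Notch1f/f against WT and -0.34 for Notch1f/f against DNMAML. The medians of all tested genes were 0.01, 0.02 and 0.0040. The comparisons with WT share the WT libraries, so they are given side by side and not set against each other.

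**Figure D2:**
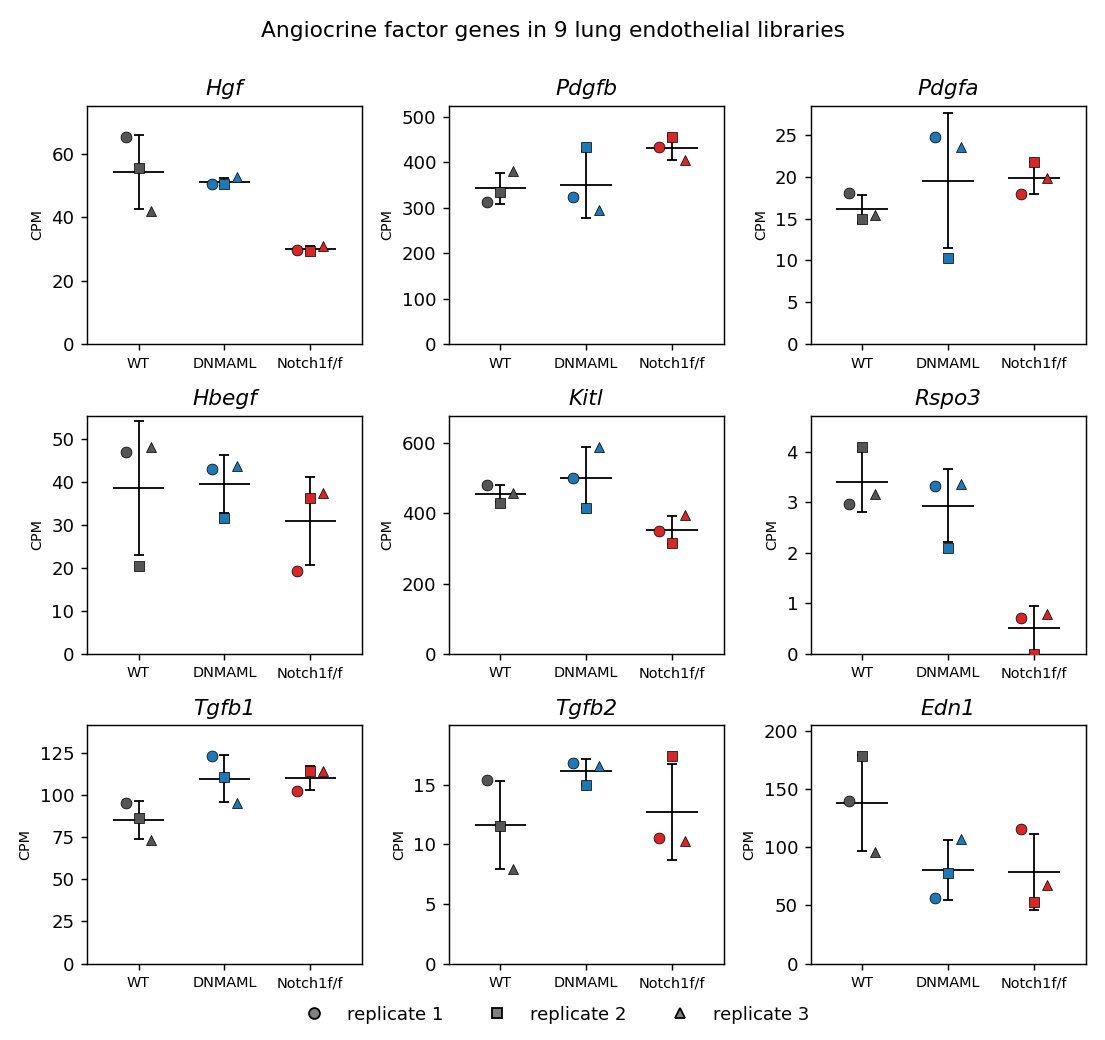
Each panel shows a member gene in CPM (vertical axis from 0) for the 3 libraries of each genotype, with a line at the mean and bars of 1 SD; symbols mark the replicate number. The Notch1f/f libraries of Hgf sit between 29.2 and 31.0 CPM, below all other libraries, while Edn1 and Tgfb2 overlap between genotypes.

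Hgf was the member that passed, in Notch1f/f against WT. It had 65.4, 55.4 and 42.0 CPM in WT, while DNMAML had 50.5, 50.3 and 52.7 and Notch1f/f had 29.7, 29.2 and 31.0. The 3 Notch1f/f values lay close together and below every other library, and the DNMAML values lay within the WT range. Hgf fell in Notch1f/f against WT by 0.86 on the log2 scale (SE 0.16, n = 3 per group), a 1.81-fold lower level, with an edgeR Benjamini-Hochberg adjusted p = 0.033. The log2 difference was -0.77 (SE 0.16) against DNMAML, with an edgeR adjusted p = 0.269, and -0.08 (SE 0.16) for DNMAML against WT (edgeR adjusted p = 0.999). The call against WT was lost without WT replicate 1 or 2 (edgeR adjusted p = 0.154 and 0.115), DNMAML replicate 1 or 3 (0.0505 and 0.056) or Notch1f/f replicate 2 (0.122). Over all 18 alternatives its adjusted p ran from 0.000362 to 0.154 and was below 0.05 in 9, and Hgf was lower in each.

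Mesenchymal cells also make Hgf, and some of their markers were lower in the same libraries. Of 12 genes of mural cells, which are pericytes and smooth muscle, 9 were lower in Notch1f/f against WT. By edgeR 5 fell, where 0.323% of all genes did: Pdgfrb, Cspg4, Notch3, Higd1b and Gucy1a1. Of these Notch3 is also among the 13 Notch target genes. The 12 mural genes summed to 571 to 863 CPM in WT, 337 to 687 in DNMAML and 138 to 263 in Notch1f/f. Cnn1 was at 0 in 2 libraries and the others were present in each. The 10 fibroblast genes, 8 of them lower and 0 past the threshold by edgeR, summed to 415 to 1318, 341 to 1628 and 187 to 582 CPM. Within DNMAML, replicate 2 had 337 CPM of mural genes against 687 and 671 in replicates 1 and 3, and 341 CPM of fibroblast genes against 1628 and 896. Its Hgf was 50.3 CPM against 50.5 and 52.7, nearly the same in all 3. Within WT, the mural sum was 863, 818 and 571 CPM, in the same order as Hgf. The part of these cells in the Hgf difference was not tested.

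Met, the receptor of Hgf, was low, at 11.6, 2.82 and 14.9 CPM in WT, compared with 7.22, 3.45 and 8.19 in DNMAML and with 3.58, 8.10 and 6.88 in Notch1f/f. The groups overlapped, with a log2 difference of -0.66 (SE 0.56) for Notch1f/f against WT. Met is an epithelial gene in the lung, and its lowest library in each genotype was also the lowest in the summed level of 10 alveolar epithelial genes, which spanned 438 to 3383 CPM in WT, 228 to 1702 in DNMAML and 184 to 1143 in Notch1f/f. Their part in the Met values was not tested. Of 9 listed genes that process Hgf or act with Met, 1 rose in Notch1f/f against WT, where 0.513% of all genes rose by edgeR. This was Plat, tissue plasminogen activator, a secreted protease, at 48.7, 38.2 and 41.1 CPM in WT and 77.4, 131 and 114 in Notch1f/f. Plat rose by 1.34 (SE 0.22) on the log2 scale, with an edgeR adjusted p = 0.0207. The call was lost without any single WT library or without Notch1f/f replicate 2 (edgeR adjusted p = 0.0743 to 0.0948). Plau, the urokinase that can activate the Hgf precursor, differed by -0.68 (SE 0.26) and did not pass (edgeR adjusted p = 0.251).

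**Figure D3:**
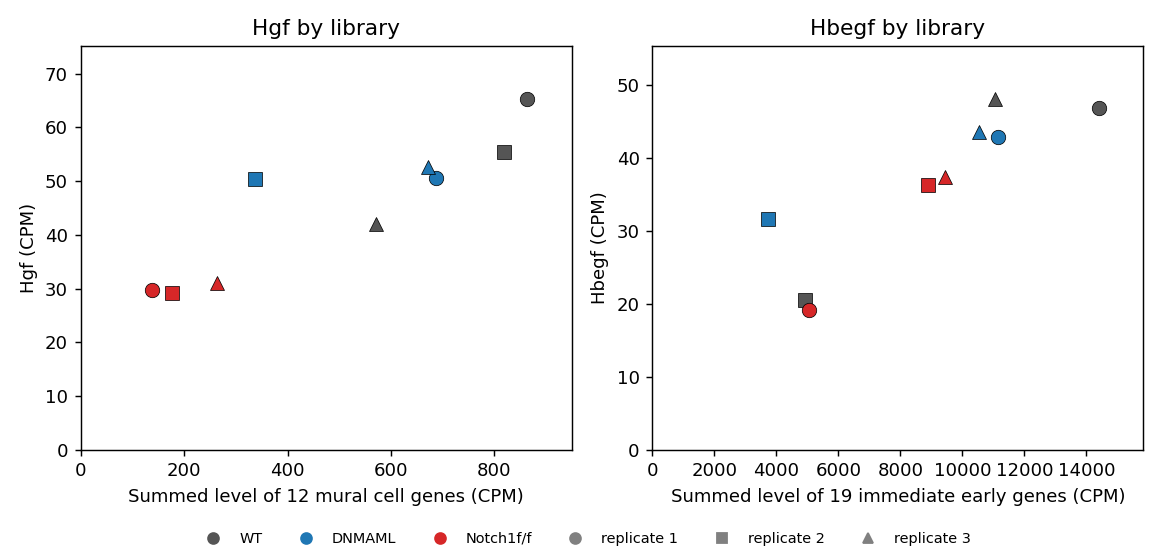
Left, Hgf in CPM against the summed CPM of 12 mural cell genes in each library; right, Hbegf in CPM against the summed CPM of 19 immediate early genes. Colours give genotypes and symbols replicates. The Notch1f/f libraries lie lowest on both axes at left, and at right WT replicate 2, DNMAML replicate 2 and Notch1f/f replicate 1 lie lowest on both axes.

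Pdgfb was among the most abundant members and had 313, 334 and 380.0 CPM in WT, 324, 433 and 294 in the DNMAML libraries and 435, 456 and 404 in the Notch1f/f libraries. Every Notch1f/f library exceeded every WT library, and DNMAML replicate 2 reached the Notch1f/f range. The log2 difference was 0.33 (SE 0.16) for Notch1f/f against WT, 0.03 (SE 0.15) for DNMAML against WT and 0.30 (SE 0.16) between the 2, none past the threshold (edgeR adjusted p = 0.379, 0.999 and 0.851). Its receptor Pdgfrb, a marker of pericytes, fell in Notch1f/f from 251, 203 and 156 CPM in WT to 34.1, 33.0 and 54.5. That log2 change was -2.33 (SE 0.32), with an edgeR adjusted p = 0.0192, while DNMAML libraries had 193, 90.2 and 170.1 CPM. The call was lost without WT replicate 1 or 2 or Notch1f/f replicate 2 (edgeR adjusted p = 0.0771, 0.0845 and 0.0875). Pdgfb and Pdgfrb thus had differences of opposite sign in the same libraries, of which that of Pdgfrb passed.

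Pdgfa was much lower than Pdgfb per length and had 18.1, 15 and 15.4 CPM in WT, while DNMAML had 24.8, 10.3 and 23.6 and Notch1f/f had 17.9, 21.8 and 19.8. DNMAML replicate 2 was the lowest of all libraries and the other 2 DNMAML libraries the highest. The log2 difference was 0.28 (SE 0.29) for DNMAML against WT and 0.30 (SE 0.29) for Notch1f/f against WT (edgeR adjusted p = 0.999 and 0.753). Its receptor Pdgfra, a fibroblast gene, had 379, 91.2 and 154 CPM in WT, compared with 281, 50.6 and 189 in DNMAML and with 35.4, 25.6 and 72.5 in Notch1f/f. The Pdgfra groups of Notch1f/f and WT did not overlap, but the log2 difference of -2.23 (SE 0.83) did not pass (edgeR adjusted p = 0.307). Of the other PDGF ligands, Pdgfd had 78.0, 73.2 and 80.2 CPM in WT and overlapping values elsewhere, and Pdgfc was too low to be tested.

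Hbegf varied within each genotype more than between them. It had 46.8, 20.5 and 48.1 CPM in WT, 42.9, 31.6 and 43.6 in the DNMAML libraries and 19.2, 36.2 and 37.4 in the Notch1f/f libraries, with WT replicate 2, DNMAML replicate 2 and Notch1f/f replicate 1 the lowest of their groups. The log2 difference was 0.03 (SE 0.34) for DNMAML and -0.32 (SE 0.34) for Notch1f/f against WT (edgeR adjusted p = 0.999 and 0.797). The same 3 libraries were lowest in the summed level of 19 immediate early genes such as Fos, Jun and Egr1, which respond within minutes to stimulation. That sum was 14396, 4936 and 11043 CPM in WT, 11135, 3733 and 10530.1 in the DNMAML libraries and 5066, 8905 and 9441 in Notch1f/f. The relation was not tested. Without these 3 libraries the log2 difference of Hbegf was -0.13 for DNMAML and -0.37 for Notch1f/f against WT.

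The EGF receptor gene Egfr was low, with 12, 5.51 and 12.8 CPM in WT, while DNMAML had 12.4, 2.50 and 11.4 and Notch1f/f had 2.6, 2.92 and 4.28. Its Notch1f/f and WT groups did not overlap, and the log2 difference of -1.63 (SE 0.55) did not pass (edgeR adjusted p = 0.194). Erbb2, which pairs with the ligand-binding members of the receptor family, had 55.4, 63.4 and 59.7 CPM in WT and overlapping values in the other genotypes. The sheddase genes Adam10 and Adam17, whose proteases cut EGF family precursors, had 135, 131 and 141 CPM and 97.6, 98.9 and 99.4 CPM in WT. Adam10 in Notch1f/f had 176, 219 and 162 CPM, above every WT library, with a log2 difference of 0.45 (SE 0.13) that did not pass in edgeR (adjusted p = 0.121) and passed in DESeq2. Of 15 listed EGF family genes 11 could be tested and 0 passed in any comparison with edgeR. At an unadjusted p below 0.05 there were 0, 2 and 1 in DNMAML against WT, Notch1f/f against WT and Notch1f/f against DNMAML. The shares of all genes were 5.97%, 13.4% and 6.37%. DESeq2 called Adam10 in Notch1f/f against WT, where 6.2% of all genes passed, and no other, and limma-voom called 0.

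Kitl had 479.8, 431 and 459 CPM in WT, compared with 499.9, 415 and 590.1 in DNMAML and with 351, 314 and 395 in Notch1f/f. All 3 Notch1f/f libraries lay below all 6 others. Kitl had a log2 difference of -0.37 (SE 0.15) from WT and -0.51 (SE 0.15) from DNMAML, neither of which passed (edgeR adjusted p = 0.292 and 0.548). For DNMAML against WT it was 0.14 (SE 0.15) (edgeR adjusted p = 0.999). In the lung, Kitl is known as a gene of aerocytes, the capillary cells specialised for gas exchange, and Kit as a gene of general capillary cells. Of 9 aerocyte markers, Kitl not among them, 7 were lower in Notch1f/f against WT. By edgeR 1 (Tmcc2) fell, where 0.323% of all genes did. Other vessel lists gave similar counts. Of 9 arterial markers 7 were lower and 1 fell. Of 9 general capillary markers 6 were lower and 1 rose, where 0.513% of all genes rose. The 9 aerocyte markers summed to 3213 to 3669.7 CPM in WT, 2669 to 3609 in DNMAML and 1954 to 2806 in Notch1f/f. The part of aerocytes in the Kitl values was not tested. Kit had 949, 1192 and 1004 CPM in WT, 860.4, 1310.3 and 1004 in the DNMAML libraries and 1253, 923 and 1096 in the Notch1f/f libraries, and its log2 difference was 0.06 (SE 0.18) for Notch1f/f against WT. Of the 4 genes listed with Kit, 0 passed in edgeR, DESeq2 or limma-voom in any comparison. An unadjusted p below 0.05 was reached by 1, Sh2b3, in Notch1f/f against WT, where 13.4% of all genes did.

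Rspo3 was the least abundant member per length and rested on few counts. It had 57, 64 and 62 counts in WT, while DNMAML had 83, 42 and 92 and Notch1f/f had 16, 0 and 14. As CPM these were 2.96, 4.10 and 3.16, then 3.33, 2.10 and 3.36, then 0.716, 0 and 0.789. A count of 0 in Notch1f/f replicate 2 allows up to 0.133 CPM, from 3 counts and for counting error only. All Notch1f/f libraries lay below all WT and DNMAML libraries. The fitted log2 difference was -2.76 (SE 0.90) against WT and -2.55 (SE 0.89) against DNMAML, which did not pass in edgeR (adjusted p = 0.174 and 0.632). DESeq2 called the difference from WT (adjusted p = 0.0119) and limma-voom did not (0.173). Without Notch1f/f replicate 2 the log2 difference from WT was -2.16 (edgeR adjusted p = 0.212).

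Of the Rspo3 receptors, Lgr4 had 7.90, 4.55 and 5.20 CPM in WT and 4.92, 5.80 and 1.97 in Notch1f/f, with overlapping groups and a log2 difference of -0.47 (SE 0.44). Lgr5 had 0 counts in 8 of 9 libraries and 2 counts in DNMAML replicate 1, and a count of 0 allows up to 0.110 to 0.192 CPM, depending on the library. Znrf3, the ubiquitin ligase that R-spondins inhibit, had 31.6, 21.7 and 19 CPM in WT and 23.6, 25.5 and 37.5 in Notch1f/f. Of 8 listed genes of this pathway 6 could be tested, and 0 passed in any comparison by edgeR, DESeq2 or limma-voom, with 0 at an unadjusted p below 0.05.

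Tgfb1 had 95.5, 86.3 and 73.4 CPM in WT, compared with 123, 111 and 95.4 in DNMAML and with 102, 114 and 114 in Notch1f/f. Each Notch1f/f library exceeded every WT library, while DNMAML replicate 3 lay just below WT replicate 1. Tgfb1 had a log2 difference of 0.37 (SE 0.14) for Notch1f/f and 0.37 (SE 0.14) for DNMAML against WT, which did not pass (edgeR adjusted p = 0.237 and 0.649). Tgfb2, the less abundant isoform, had 15.4, 11.5 and 7.95 CPM in WT, 16.8, 14.9 and 16.6 in the DNMAML libraries and 10.5, 17.4 and 10.3 in the Notch1f/f libraries, with overlapping groups. Its log2 difference was 0.47 (SE 0.29) for DNMAML and 0.13 (SE 0.29) for Notch1f/f against WT (edgeR adjusted p = 0.999 and 0.922). Within the 3 WT and DNMAML pairs of the same replicate number, Tgfb1 and Tgfb2 were each higher in DNMAML in 3 of 3. The other members changed direction between pairs. The labels do not state this pairing, and the share of all tested genes with the same direction in 3 of 3 was not computed. Without that share, direction within pairs does not set Tgfb1 and Tgfb2 apart from other genes. With the pair as a block among these 6 libraries neither passed, at a log2 difference of 0.37 for Tgfb1 and 0.51 for Tgfb2 (edgeR adjusted p = 0.0735 and 0.361). Platelets also carry Tgfb1 and Pdgfb. Of 6 platelet genes, 5 could be tested, all 5 had positive log2 differences against WT in both genotypes and 0 passed by edgeR. Their sum was 395, 80.8 and 118 CPM in WT, 984, 47.2 and 74.7 in the DNMAML libraries and 321, 27.3 and 329 in Notch1f/f, with Gp1bb at 0 in 7 libraries. Their part in the Tgfb1 and Pdgfb values was not tested.

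Among 24 listed partners of TGF-beta, 1 passed by edgeR, in Notch1f/f against WT, where 0.836% of all genes did. Nrros, a protein that anchors latent TGF-beta on cells, rose from 45.3, 46.6 and 44.6 CPM in WT to 73.0, 134 and 108 in Notch1f/f, a log2 change of 1.21 (SE 0.20) (edgeR adjusted p = 0.0219). This call was lost with limma-voom and without any single WT library or Notch1f/f replicate 2 (adjusted p = 0.0621 to 0.108). DNMAML libraries had 59.7, 87.5 and 70.6 CPM of Nrros, also above every WT library, with a log2 difference of 0.67 (SE 0.20) that did not pass (edgeR adjusted p = 0.432). Nrros is best known from macrophages and microglia. The 16 leukocyte markers summed to 124 to 833 CPM in WT, 382 to 614 in DNMAML and 154 to 340.4 in Notch1f/f. Lyz2 alone made up most of the mean sums, at 432 of 459 CPM in WT, 370 of 463 in DNMAML and 171 of 219 in Notch1f/f. The sums thus mostly follow that gene. Itgam, Nkg7 and Siglecf were each at 0 in 5 libraries. Of the 11 leukocyte markers tested, 9 had positive differences in Notch1f/f against WT and 0 passed by edgeR. An unadjusted p below 0.05 was reached by 2, against 13.4% of all genes, and DESeq2 called Cd79a and Mrc1 higher. In DNMAML against WT 10 of 11 were positive, 4 had an unadjusted p below 0.05, against 5.97% of all genes, and 0 passed by edgeR. The part of leukocytes in the Nrros values was not tested. Lrrc32, another anchor of latent TGF-beta, had 225, 223 and 169 CPM in WT, while DNMAML had 111, 116 and 129 and Notch1f/f had 160.3, 98.1 and 132, so that both genotypes lay below every WT library. Its log2 difference was -0.79 (SE 0.18) for DNMAML and -0.66 (SE 0.18) for Notch1f/f against WT (edgeR adjusted p = 0.175 and 0.105), and DESeq2 called both.

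The receptor Tgfbr2 had 341, 256 and 272 CPM in WT and 331, 481 and 435 in Notch1f/f, a log2 difference of 0.52 (SE 0.16) (edgeR adjusted p = 0.151). Tgfbr1 had 39.9, 30.9 and 35.2 CPM in WT and 48.4, 52.3 and 31.2 in Notch1f/f. The endothelial co-receptor Eng and the receptor Acvrl1 differed by -0.62 (SE 0.17) and -0.58 (SE 0.18) in Notch1f/f against WT, neither past the threshold by edgeR (adjusted p = 0.115 and 0.149). Ccn2 and Smad7, which TGF-beta induces in many cells, differed by 0.05 (SE 0.58) and -0.72 (SE 0.25) and did not pass by edgeR. DESeq2 called 3 of the 24 higher and 4 lower in Notch1f/f against WT, where 6.2% of all genes passed. In DNMAML against WT 0 of the 24 passed by edgeR or limma-voom, and DESeq2 called 1, against 1.14% of all genes. An unadjusted p below 0.05 was reached by 2, against 5.97% of all genes. Between Notch1f/f and DNMAML these counts were 0 by each tool and 5 at an unadjusted p below 0.05, against 6.37%.

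Edn1 had 139.8, 178 and 95.9 CPM in WT, compared with 56.0, 77.7 and 107.4 in DNMAML and with 116, 53.1 and 67.4 in Notch1f/f. WT replicates 1 and 2 lay above all other libraries, and WT replicate 3 lay within the range of both other genotypes. The means were 138 ± 41.0, 80.4 ± 25.8 and 78.7 ± 32.7 CPM (SD, n = 3). Edn1 had a log2 difference of -0.78 (SE 0.35) for DNMAML and -0.81 (SE 0.35) for Notch1f/f against WT, both lower but not past the threshold (edgeR adjusted p = 0.854 and 0.368). With no filter on low counts both passed (edgeR adjusted p = 0.00061 and 9.77e-05). The log2 differences were then nearly the same, at -0.77 and -0.80, but each SE was 0.17 in place of 0.35. Those calls thus rest on a smaller estimated spread and not on a larger difference. Between Notch1f/f and DNMAML it was -0.03 (SE 0.35). Within WT and within Notch1f/f, the library with the lowest immediate early sum had the highest Edn1, at 178 and 116 CPM, whereas in DNMAML the library with the lowest sum had the middle value. Without these 3 libraries the log2 difference was -0.52 for DNMAML and -0.97 for Notch1f/f against WT.

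The other genes of the endothelin pathway had lower values in Notch1f/f against WT without passing in edgeR. All 5 that could be tested had negative log2 differences, with a median of -1.08. An unadjusted p below 0.05 was reached by 2, against 13.4% of all genes. DESeq2 called 2, Ednra and Ece1, against 6.2% of all genes. Ednra, the receptor of smooth muscle and pericytes, had 69.2, 33.5 and 34.6 CPM in WT, 59.7, 13.1 and 42.0 in the DNMAML libraries and 9.13, 6.91 and 12 in the Notch1f/f libraries. Its log2 difference was -2.30 (SE 0.55) for Notch1f/f against WT (edgeR adjusted p = 0.107). The 12 mural genes summed to 571 to 863 CPM in WT and 138 to 263 in Notch1f/f. The part of cells other than endothelium in the differences of Ednra and the other 4 genes was not tested. Ednrb, the endothelial receptor and 1 of the 9 aerocyte markers, had 415, 495 and 420.1 CPM in WT, while DNMAML had 387, 202 and 535 and Notch1f/f had 202, 139 and 359, with a log2 difference of -0.93 (SE 0.41) for Notch1f/f against WT (edgeR adjusted p = 0.375). Ece1, which cleaves the endothelin precursor, had 1588, 1658 and 1557 CPM in WT, compared with 1106, 1344 and 1363 in DNMAML and with 1216, 1061 and 1236 in Notch1f/f, so that both genotypes lay below every WT library. Its log2 differences from WT were -0.33 (SE 0.14) and -0.45 (SE 0.14) (edgeR adjusted p = 0.744 and 0.143). Edn2, Ece2 and Kel were too low to be tested.

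**Figure D4:**
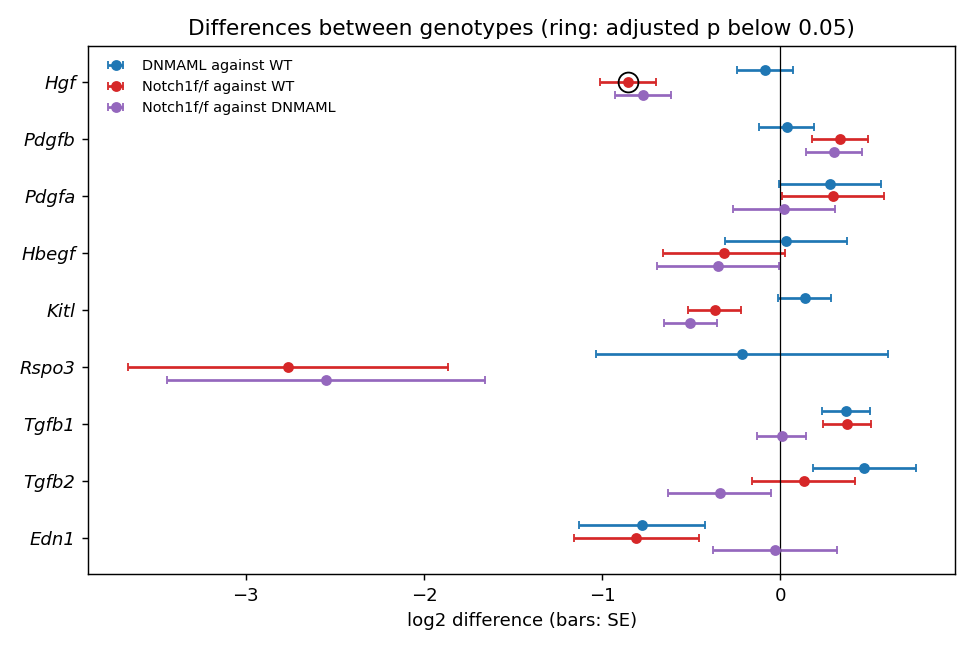
For each member gene the points give the log2 difference (horizontal axis) in the 3 comparisons, with bars of 1 SE; a ring marks an edgeR adjusted p below 0.05. The ring appears once, at Hgf for Notch1f/f against WT (-0.86), and Rspo3 has the widest bars.

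Over all 75 listed ligands, receptors and partners, 65 could be tested. Plat and Nrros rose and Pdgfrb fell in Notch1f/f against WT, that is 3 of 65 where the background was 0.836% of all genes. Their median log2 difference was -0.24, with 38 of 65 lower, and the groups did not overlap for 24 of 65, against 17.8% of all tested genes. With DESeq2 5 were higher and 7 lower, where 6.2% of all genes passed. With limma-voom Plat was higher and Pdgfrb lower, where 0.354% of all genes passed. In DNMAML against WT 0 of 65 passed by edgeR, and 3 had an unadjusted p below 0.05, against 5.97% of all genes. DESeq2 called 1 (Lrrc32), against 1.14%, and limma-voom 0. Between Notch1f/f and DNMAML 0 of 65 passed by edgeR, and 14 had an unadjusted p below 0.05, against 6.37% of all genes. DESeq2 called 3 (Plat higher, Pdgfrb and Ednra lower), against 1.02%, and limma-voom 0.

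Genes with the most similar pattern were taken as those with the smallest root mean square difference of mean-centred log2 CPM over the 9 libraries. For Hgf Arhgef6, a guanine nucleotide exchange factor, was at 0.177. For Pdgfb they were Itga6, an integrin subunit, and Bmp1, a procollagen protease, at 0.0815 and 0.0837. For Tgfb1 they were Flna and Myh9, which encode a filamin and a non-muscle myosin, at 0.100 and 0.101. For Kitl they were Ifngr2, a subunit of the interferon gamma receptor, and Tspan12, a tetraspanin, at 0.0675 and 0.0763. For Edn1 they were Txnip, a thioredoxin-binding protein, and Glb1l3 at 0.198 and 0.229. For Hbegf they were Plk3, a polo-like kinase, and Pkia, an inhibitor of protein kinase A, at 0.157 and 0.162. For Pdgfa they were Gstm7 and Hcfc1r1 (0.141 and 0.184), for Tgfb2 Orc6 and Bcl2 (0.178 and 0.187), and for Rspo3 Trim36 and Sdk2 (0.279 and 0.352), 2 genes that also had 0 counts in Notch1f/f replicate 2. All points share the same libraries and scaling, so likeness is a description.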

How the data were processed

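Whole-number read counts per gene were deposited by the authors as a table of 9 libraries. Counting used featureCounts 2.0.1 with the Ensembl 107 annotation of GRCm39, with no option for strand, read pairs or multi-mapping reads, per the file headers. STAR 2.7 and the build mm10 are named in the submitters' processing notes. Between 76.6% and 89.0% of counts below 200 in a library were even, as when both reads of a pair are counted, so counting intervals are too narrow. The gene lengths used per kb are a column of other values in the deposited table. Libraries were strand-specific total RNA depleted of ribosomal RNA, per the labels' protocols.

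Symbols came from a GRCm38 annotation, with 52073 of 56748 identifiers matched. Genes passing filterByExpr (19486) were fitted in edgeR 4.0.16 (R 4.3.3) with TMM scaling and a robust quasi-likelihood model of genotype over 9 libraries, leaving 6 residual degrees of freedom. The threshold for a gene was a Benjamini-Hochberg adjusted p of 0.05. SE is the log2 difference divided by the square root of F. CPM is relative to the TMM-scaled total. Members and lists were chosen with earlier results of these data known. Named are all members, the main receptors, listed partners that passed, and for each member 2 genes (mean of at least 1 CPM) of like pattern; Plau, Pdgfd, Adam10, Adam17, Sh2b3, Znrf3, Lrrc32, Eng, Acvrl1, Ccn2, Smad7 and Ece1 were chosen after their values were seen. Some genes that the rule would name are not reported here. Alternatives used DESeq2 1.42.0, limma-voom 3.58.1, other scaling, no filter, only 2 groups, the replicate block and each library left out; a sex term and leaving out 3 libraries were added after seeing the data. The test was run on simulated counts first. Deviations from group means correlated at 0.323, 0.383 and 0.255 for same-numbered WT and DNMAML libraries. For same-numbered Notch1f/f libraries they correlated at -0.153 to 0.227 with WT and at -0.117 to 0.261 with DNMAML. The fit reported held no term for replicate number, which entered only as a block in alternatives. No 2 libraries of a genotype held the same counts.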

Additional observations from a re-analysis of the deposited data

How the results depend on the processing

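Of 486 log2 differences of the members under 18 alternatives, 462 kept their direction. Each left-out library leaves 2 in a genotype, and Rspo3, on at most 92 counts per library, is limited by depth. Causes of the changes listed here were not tested. In DNMAML against WT the genes passing, 1 in the fit reported, were 213 with DESeq2, 0 with limma-voom, 460 with no filter (Edn1 the 1 member among them), 78 with only these 6 libraries and 0 to 94 with a library left out. For Notch1f/f against WT 163 genes passed, against 1067 with DESeq2 (2 members), 69 with limma-voom (0 members), 1415 with no filter (3 members: Hgf, Rspo3 and Edn1) and 13 (without WT replicate 1) to 530 (without Notch1f/f replicate 1) with a library left out (0 to 1 members); with only these 6 libraries 0 members passed. For Notch1f/f against DNMAML 4 genes passed, against 172 with DESeq2 (1 member), 696 with no filter (2 members: Hgf and Rspo3), 1 with only these 6 libraries and 2 to 31 with a library left out. With no filter the SE of Edn1 was 0.17 in both comparisons with WT, smaller than in the fit reported, at nearly the same log2 differences. Size factors by relative log expression changed no member's call or direction.

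With the replicate number as a block over all 9 libraries, 4, 279 and 4 genes passed in DNMAML against WT, Notch1f/f against WT and Notch1f/f against DNMAML, and with the block within each pair of genotypes 310, 92 and 8. Within the pair of Notch1f/f and WT the block left 0 members past the threshold (Hgf adjusted p = 0.124), and the blocks changed no other member's call. Same-numbered Notch1f/f libraries were not taken as paired with either genotype. Under the blocks Erbb2 in Notch1f/f against WT was -0.011 and -0.0056, Met in Notch1f/f against DNMAML 0.15, and Kit in DNMAML against WT -0.0027. With limma-voom Kit in DNMAML against WT was -0.0023 and Erbb2 in Notch1f/f against WT -0.0031.

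After seeing the data, 2 alternatives were added. Without the 3 libraries of lowest immediate early level 40, 348 and 48 genes passed in DNMAML against WT, Notch1f/f against WT and Notch1f/f against DNMAML, with 0 members in Notch1f/f against WT (Hgf adjusted p = 0.0952). The log2 differences of DNMAML against WT that then changed sign were Pdgfb -0.16, Hbegf -0.13, Rspo3 0.14, Kit -0.060, Tgfbr1 -0.046, Tgfbr2 -0.11 and Ednrb 0.15, and that of Pdgfa in Notch1f/f against DNMAML was -0.23. With a sex term 33 genes passed in DNMAML against WT, Erbb2 in Notch1f/f against WT was -0.0086, and in Notch1f/f against DNMAML Tgfb1 was -0.012 and Edn1 0.073.

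With each library left out in turn, some log2 differences spanned 0. In DNMAML against WT these were Hgf -0.23 to 0.072, Pdgfb -0.14 to 0.15, Hbegf -0.26 to 0.23, Pdgfra -0.79 to 0.50, Egfr -0.53 to 0.25, Kit -0.16 to 0.14, Lgr4 -0.39 to 0.027, Tgfbr2 -0.064 to 0.15, Ednra -0.73 to 0.17 and Ednrb -0.59 to 0.066. In Notch1f/f against WT they were Tgfb2 -0.15 to 0.39, Erbb2 -0.15 to 0.10 and Kit -0.059 to 0.17. In Notch1f/f against DNMAML they were Pdgfa -0.30 to 0.23, Tgfb1 -0.077 to 0.094, Edn1 -0.42 to 0.25, Met -0.33 to 0.24, Kit -0.086 to 0.22 and Lgr4 -0.51 to 0.10.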
